A study of Mus musculus with 10 samples.

Results

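Heat shock proteins and other chaperones were followed as 83 genes in ribosome-bound RNA of dopaminergic neurons from the ventral tegmental area of mice. They were chosen by symbol: genes named Hspa, Hspb, Hspd, Hspe, Hsph or Hsp90, Dnaja, Dnajb or Dnajc, Bag1 to Bag6 and Cct2 to Cct8, with Tcp1, Hsf1 and Hsf2. Of 56691 genes in the deposited count table, 90 had such a symbol, and 83 of these had at least 10 counts in 5 or more of the 10 libraries. The ventral tegmental area is a midbrain region rich in dopaminergic neurons. The 5 restraint libraries came from male C57BL/6 mice of genotype WT kept from moving for 30 min, a short stressor, and the 5 control libraries from male C57BL/6 mice of the same genotype without restraint. In both groups the dopaminergic neurons expressed a construct labelled NBL10-HA, and ribosome-associated mRNA was enriched from them and sequenced. The promoter or line that restricts the construct to these neurons and the age of the animals are not given in the sources used here. The comparison addressed which pathways change in these neurons after acute restraint.

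Chaperones bind proteins that are not yet folded or have lost their fold and keep them from clumping. HSP70 proteins hold and release such chains in cycles of ATP use, J-domain proteins (the Dnaj genes) bring substrates and start the cycle, and nucleotide exchange factors such as the BAG and HSP110 proteins reset it. HSP90 acts later on client proteins such as kinases and steroid hormone receptors, and the CCT ring folds actin and tubulin in a closed chamber. When misfolded proteins build up, heat shock factor 1 leaves its complex with chaperones and switches on genes such as Hspa1a, Hspa1b, Dnajb1 and Hspb1. Its activity is set mainly by trimer formation and phosphorylation of the protein, which RNA levels do not measure.

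Totals ran from 56082358 to 86584968 counts per library. The level of a gene is given as TMM-normalized CPM, its count scaled to a common library size and composition. Levels of different genes are compared only as CPM per kb of exon. The exon length is that of all annotated exons of a gene, which can exceed the length of a single transcript. Th, the gene of tyrosine hydroxylase, with which dopamine synthesis starts, had 477 ± 65.3 CPM in restraint and 411 ± 78.6 CPM in control libraries, and the astrocyte gene Gfap 2471 ± 316 and 1919 ± 121 CPM (SD, n = 5 each). Per length, Th had 202 CPM per kb in restraint and 174 CPM per kb in control libraries, below Gfap at 586 and 455 CPM per kb in restraint and control libraries, so the values below are not assigned to a cell type. Astrocyte markers were higher in restraint for 6 of 8 genes, with summed levels of 4486 to 5597 CPM in restraint and 3905 to 4490 CPM in control libraries. Dopamine neuron markers were higher for 6 of 8 (1172 to 1632 CPM in restraint, 982 to 1469 CPM in control), endothelial and pericyte markers for 6 of 7 (13.9 to 21.0 CPM in restraint, 10.99 to 15.4 CPM in control), oligodendrocyte markers for 4 of 7 (1469 to 2034 CPM in restraint, 1539 to 1879 CPM in control) and microglia markers for 4 of 6 (14.2 to 20.1 CPM in restraint, 13.1 to 21.8 CPM in control). GABA neuron markers were higher for 1 of 3 and glutamate neuron markers for 1 of 2, and no marker was at 0 in all libraries. Restraint 1 stood apart on the first principal component (score -92.1, against -4.08 to 19.2 for the other 9), and among counts of 1 to 30 the share of even values was 80.0 to 84.8% in restraint and 76.8 to 79.8% in control libraries, without overlap. The part of the cell markers, of restraint 1 and of the even counts in the results below was not tested, apart from the values without restraint 1. In such bulk RNA, fewer cells of a type and less RNA per cell cannot be told apart. The labels do not say that each library is a separate animal, so p-values measure the spread between these libraries, which may be technical.

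No chaperone gene passed the test after restraint. All 83 were among the 18440 genes tested, and edgeR's quasi-likelihood test called 0 higher and 0 lower at a threshold of 0.05 on the p adjusted over all genes tested (Benjamini-Hochberg). It called 0.00542% of all genes higher and 0.0163% lower. At an unadjusted p under 0.05, 8 chaperone genes were higher (9.64% of the 83, against 5.64% of all genes tested) and 4 were lower (4.82%, against 6.04%). The 8 higher were Dnajc21, Dnajc2, Hsph1, Bag1, Bag3, Dnajc7, Hsp90ab1 and Dnajc8, and the 4 lower were Cct7, Bag4, Cct4 and Dnajb2. DESeq2, which called 0.634% of all genes higher and 1.00% lower, passed 3 of the chaperone genes as higher (Dnajc21, Dnajc2 and Hsph1) and 0 as lower, and gave no adjusted p for 4. With edgeR on all genes with at least 1 count, which called 0.317% higher and 0.612% lower, 2 chaperone genes were called higher (Dnajc21 and Bag3) and 0 lower, and limma-voom called 0 in either direction. The log2 fold change (restraint over control) was positive for 46 chaperone genes and negative for 37, with a median of 0.03, beside a median of -0.00, 49.6% positive and 50.4% negative over all genes tested. It was below 0.2 in size for 71 of the 83 and above 0.3 for 6, and its median standard error was 0.09. Restraint libraries lay wholly above control libraries for 1 gene, Dnajc2, and wholly below for 1, Bag4, while 1.25% and 1.36% of all genes separated in these ways.

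**Figure D1:**
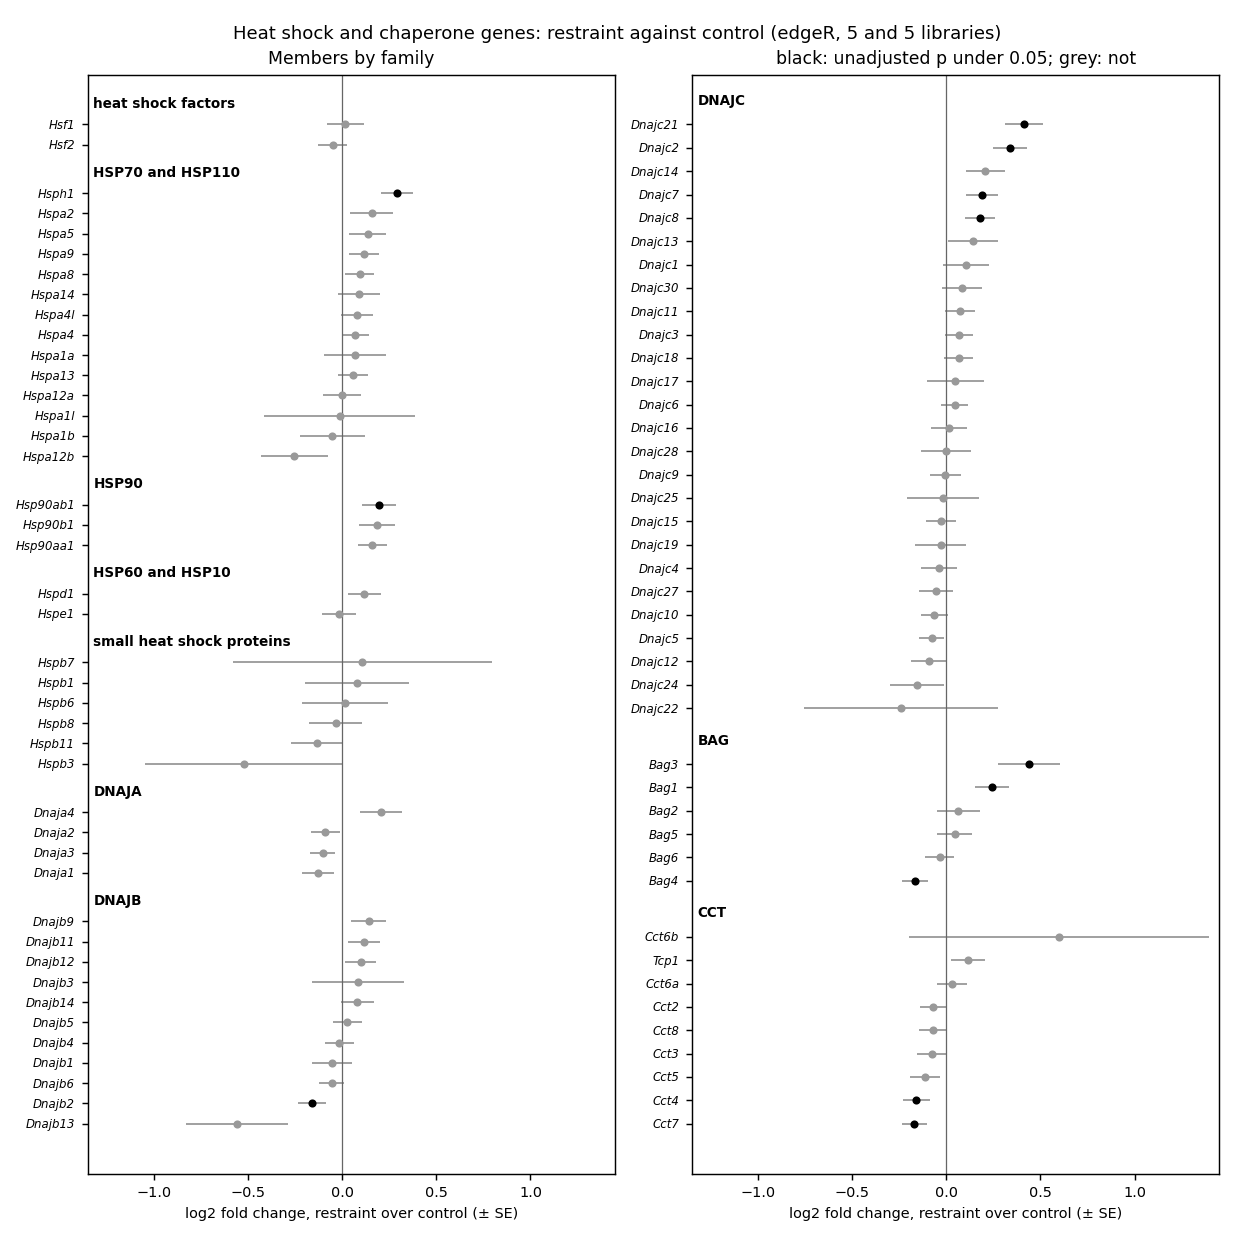
Log2 fold change of each of the 83 chaperone genes (x axis, restraint over control, point with its standard error, edgeR, 5 and 5 libraries), listed by family down the page. Black points mark the 12 genes at an unadjusted p under 0.05, 8 to the right of 0 and 4 to the left, and 71 of the 83 points lie within 0.2 of 0.

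The chaperone RNAs differed far more among themselves than between the groups. Per length, Hsp90ab1, the constitutive cytosolic HSP90, was the highest at 754 CPM per kb in restraint and 658 CPM per kb in control libraries, and ranked 17 of the 18440 genes tested over all 10 libraries. Hspa8, the constitutive HSP70, had 629 and 590 CPM per kb in restraint and control libraries (rank 28), and Hsp90aa1, the inducible cytosolic HSP90, 482 and 431 CPM per kb (rank 53). Bag1, which encodes an exchange factor for HSP70, came next at 196 CPM per kb in restraint and 165 CPM per kb in control. This order holds for the length of all annotated exons and can differ by transcript length. For Hspa8 the exons cover 4301 bases against 2394 in the longest coding transcript, and for Hsp90ab1 2999 against 2520. The lowest was Hspb7, at 0.0866 CPM per kb in restraint and 0.0802 CPM per kb in control. Levels not scaled by length averaged over 100 CPM for 38 genes, over 1000 CPM for 3 and under 1 CPM for 5. Summed over all 83, the libraries held 16658 to 17990 CPM after restraint and 15480 to 17776 CPM in control, and these ranges overlapped. The count minimum kept Cct6b, a CCT subunit gene best known from testis, with 7 libraries at 10 or more counts (0 to 37 counts), and left out Hspb2, with 2 such libraries (0 to 24 counts). The other 6 genes left out were Cct8l1, Dnajb7, Dnajb8, Dnajc5b, Dnajc5g and Hspb9.

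**Figure D2:**
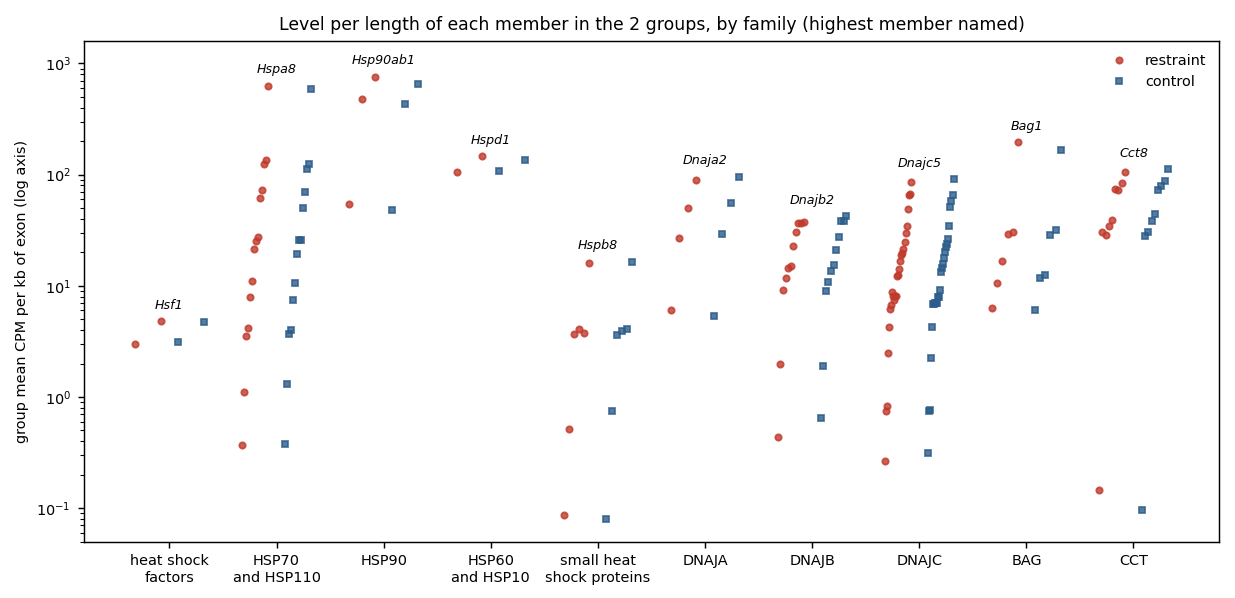
Mean level per length of each chaperone gene (y axis, CPM per kb of exon, log scale) in restraint (red circles, left) and control libraries (blue squares, right), by family with the highest member named. Levels run over more than 3 powers of 10 within the HSP70 family, and each family's pair of columns has nearly the same heights.

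The heat shock factor genes had similar levels in both groups. Hsf1, the main activator of heat shock genes, had 30.4, 31.7, 37.1, 36.5 and 35.0 CPM in restraint libraries 1 to 5 and 29.4, 37.6, 32.8, 30.2 and 38.6 CPM in control libraries 1 to 5. The groups overlapped over nearly their whole range, and the log2 fold change was 0.02 ± 0.10 (SE). Hsf2, a related factor that can join heat shock factor 1 on DNA, had 29.0 ± 0.75 CPM in restraint and 30.0 ± 1.4 CPM in control libraries (SD, n = 5 each), a log2 fold change of -0.05 ± 0.08 (SE).

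The inducible genes that heat shock factor 1 is best known for were present at low or moderate levels and overlapped between the groups. Hspa1a and Hspa1b, which encode nearly identical inducible HSP70 proteins, are neighbours on chromosome 17 (35188166 to 35191132 and 35175412 to 35178214, minus strand, GRCm39). A heat shock element is a run of alternating units GAA and TTC, and was searched as 2 facing units, GAANNTTC or TTCNNGAA, each its own reverse complement so that 1 strand covers both. The window ran from 250 bases before to 50 after the gene start in RefSeq sequence of GRCm38.p6, a build other than that of the gene coordinates. The 3-unit form, in which both motifs overlap by a shared unit, was searched too. Of the 83 genes, 68 had a window. Among the genes without a window, Hspa8, Hsp90aa1 and Hsp90ab1 are textbook targets, and Dnajc2 passed with DESeq2. Dnajb1, also a textbook target, and Dnajc21, which passed with DESeq2, had a window without a match. The stretches below, 5′ to 3′ on the gene's strand with each match in capitals, are those of Hspa1a, Hspa1b and Hspb1, textbook targets of the factor, of Hspd1 and Hspe1, which share a promoter, and of Hsph1, 1 of the 3 genes that passed with DESeq2.
Hspa1a (chr17:34972207-34972306, minus strand): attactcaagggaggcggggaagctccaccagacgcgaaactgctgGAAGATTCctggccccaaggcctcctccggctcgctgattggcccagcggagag
Hspa1b (chr17:34959289-34959388, minus strand): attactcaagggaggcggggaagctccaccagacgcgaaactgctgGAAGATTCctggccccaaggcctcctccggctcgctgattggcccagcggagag
Hspb1 (chr5:135887766-135887865, plus strand): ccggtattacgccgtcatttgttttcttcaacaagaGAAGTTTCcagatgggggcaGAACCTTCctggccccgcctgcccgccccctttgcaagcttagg
Hspd1 (chr1:55088053-55088082, minus strand): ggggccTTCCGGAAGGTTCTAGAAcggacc
Hspe1 (chr1:55088053-55088082, plus strand): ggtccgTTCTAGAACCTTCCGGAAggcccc
Hsph1 (chr5:149636351-149636380, minus strand): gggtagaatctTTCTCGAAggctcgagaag

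The printed stretches of Hspa1a and Hspa1b are the same, and their whole windows share 98.7% of 300 bases. Those of Hspd1 and Hspe1 are the same 30 bases on opposite strands, inside an annotated exon of Hspd1, and hold 3 overlapping matches in a run of 4 alternating units, which reads as such from either strand. Hsph1 has its 3-unit element 37 to 49 bases after the start whose window is printed. The 2-unit match printed for Hsph1 is upstream of that start, in a stretch that overlaps an annotated exon of Hsph1. The 2-unit motif was in a window of 19 of the 68 chaperone genes (27.9%) and of 17.0% of 27025 genes. Some genes had more than 1 window. Counted by window, it was in 21 of 88 (23.9%) for chaperone genes and in 15.1% of 32851 for all genes. The 3-unit element was in a window of 4 of the 68 genes (5.88%), Dnajb6, Hspd1, Hspe1 and Hsph1, and of 0.662% of all genes. The element of Hspd1 and that of Hspe1 are the same bases, so this share counts them for both genes. A match describes the letters in this window and does not show binding.

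Counts of these inducible genes did not separate the groups. Hspa1a had 14.5, 11.1, 10.5, 12.4 and 13.7 CPM in restraint libraries and 9.63, 17.1, 9.42, 9.66 and 13.5 CPM in control libraries. All restraint libraries were above the control median. The highest and the 3 lowest values were all from control libraries, so the groups overlapped. The log2 fold change was 0.07 ± 0.17 (SE), and it lay between 0.00 and 0.25 when each library was left out in turn. Hspa1b had 9.48, 7.02, 10.9, 11.4 and 10.6 CPM in restraint libraries and 7.33, 13.8, 8.06, 11.02 and 10.95 CPM in control libraries, a log2 fold change of -0.05 ± 0.17 (SE). Control 2 was the highest library for both genes. Of 100-base windows of the transcripts, 47.1% of those of Hspa1a lie also in Hspa1b and 49.9% of those of Hspa1b lie also in Hspa1a. Reads that map to both genes were left out, so the levels of both may be understated. Dnajb1, the J-domain partner of inducible HSP70, had 97.4 to 132 CPM in restraint and 105 to 151 CPM in control libraries (log2 -0.05 ± 0.11, SE). Hspb1, a small heat shock protein that binds actin filaments and holds unfolded proteins, had 2.39 to 6.15 CPM in restraint and 2.51 to 5.77 CPM in control libraries (log2 0.08 ± 0.27, SE).

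**Figure D3:**
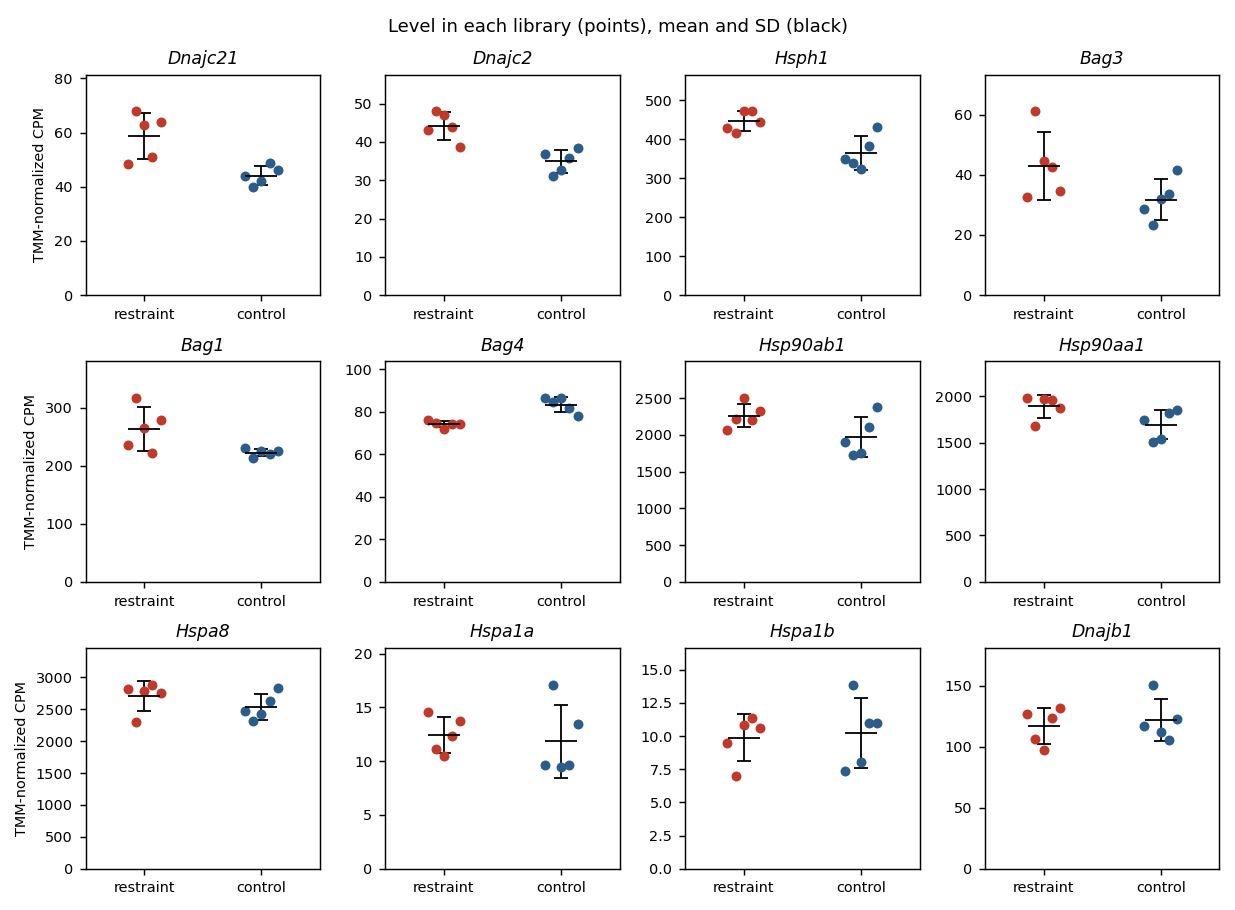
Level of 12 chaperone genes in each library (y axis, TMM-normalized CPM, points), with the mean and SD in black, restraint (red) left of control (blue). Restraint libraries lie wholly above control for Dnajc2 and wholly below for Bag4, and for Hspa1a, Hspa1b and Dnajb1 the highest library is a control.

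The other HSP70 genes were mostly a little higher after restraint, and the clearest was the HSP110 gene Hsph1. The family of 14 had 10 positive and 4 negative log2 fold changes and a median of 0.07, while 49.6% of all genes tested were positive. It had 1 gene higher and 0 lower at an unadjusted p under 0.05, against 5.64% and 6.04% of all genes. Hsph1 (chromosome 5, 149537752 to 149559841, minus strand) encodes HSP110, which resets HSP70 and helps it to take proteins out of clumps. It had 428, 417, 472, 471 and 445 CPM in restraint libraries and 348, 339, 323, 383 and 430 CPM in control libraries. All restraint libraries were above the control median, and control 5 alone reached into their range. The log2 fold change was 0.29 ± 0.08 (SE), with an adjusted p of 0.177 by edgeR and 0.0464 by DESeq2, and it lay between 0.26 and 0.35 when each library was left out in turn. The related genes Hspa4 and Hspa4l, which encode other members of the HSP110 group, had log2 fold changes of 0.07 ± 0.07 and 0.08 ± 0.09 (SE).

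The constitutive members overlapped between the groups. Hspa8 had 2816, 2299, 2782, 2879 and 2760 CPM in restraint libraries and 2473, 2323, 2419, 2636 and 2834 CPM in control libraries. Restraint 2 was the lowest of all 10 and the other 4 restraint libraries stood above 4 of the 5 controls, with a log2 fold change of 0.09 ± 0.08 (SE). For Hspa8, 63.4% of 100-base windows also lie in 1 or more of 9 other genes, Gm26825 above all (58.5%), so its level may be understated. Hspa5, the HSP70 of the endoplasmic reticulum, had 526 ± 71 CPM in restraint and 479 ± 52 CPM in control libraries (SD, n = 5 each; log2 0.14 ± 0.10, SE). Hspa9, the mitochondrial HSP70, had 580 ± 40 and 535 ± 54 CPM in restraint and control libraries (SD, n = 5 each; log2 0.12 ± 0.08, SE). Hspa2, Hspa13 and Hspa12a had log2 fold changes of 0.16, 0.06 and -0.00. The most negative log2 fold change of the family was that of Hspa12b, known from endothelial cells, which had 4.08 ± 0.83 CPM in restraint and 4.86 ± 0.73 CPM in control libraries (log2 -0.25 ± 0.18, SE), while the endothelial and pericyte markers were mostly higher in restraint.

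All 3 HSP90 genes were higher after restraint by a similar amount, and none passed the test. Hsp90ab1 (chromosome 17, 45878701 to 45884197, minus strand) had 2066, 2213, 2499, 2208 and 2322 CPM in restraint libraries and 1899, 1727, 1757, 2112 and 2374 CPM in control libraries. All restraint libraries were above the control median, but control 4 and control 5 lay within their range. Its log2 fold change was 0.20 ± 0.09 (SE), with an adjusted p of 0.399 by edgeR and 0.307 by DESeq2. Hsp90aa1 had 1979, 1682, 1973, 1955 and 1876 CPM in restraint libraries and 1744, 1511, 1539, 1814 and 1854 CPM in control libraries (log2 0.16 ± 0.08, SE). Restraint 2 fell below 3 controls and the other 4 restraint libraries were above all of them. Hsp90b1, the HSP90 of the endoplasmic reticulum, had 219 ± 28 CPM in restraint and 192 ± 20 CPM in control libraries (SD, n = 5 each; log2 0.19 ± 0.10, SE). The summed level of the 3 genes was 4080 to 4717 CPM in restraint and 3411 to 4437 CPM in control libraries, and these ranges overlapped through control 4 and control 5.

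The mitochondrial chaperonin genes did not separate. Hspd1, which encodes the HSP60 ring, had 385 ± 26 CPM in restraint and 355 ± 45 CPM in control libraries (SD, n = 5 each; log2 0.12 ± 0.09, SE). Hspe1, its lid HSP10, read from the same promoter in the other direction, had 157 ± 15 and 158 ± 16 CPM in restraint and control libraries (SD, n = 5 each; log2 -0.02 ± 0.09, SE). The 6 genes grouped as small heat shock proteins by the symbol Hspb alone were low. Hspb8, a partner of BAG3, was the highest at 31.3 ± 6.8 CPM in restraint and 32.1 ± 5.4 CPM in control libraries (SD, n = 5 each). Log2 fold changes of the 6 genes ran from -0.52 to 0.11 with a median of -0.01, and their median standard error was 0.25, above the 0.09 of all 83 genes. Hspb6 and Hspb11 had log2 fold changes of 0.01 ± 0.23 and -0.14 ± 0.13 (SE).

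Among the 41 J-domain genes, 21 had a positive and 20 a negative log2 fold change (median 0.01), and the smallest p-values were those of Dnajc21 and Dnajc2. Dnajc21 (chromosome 15, 10446842 to 10470602, minus strand) encodes a J-domain protein that works in the making of the large ribosomal subunit in yeast and human cells. It had 48.2, 67.9, 62.9, 50.8 and 64.0 CPM in restraint libraries and 43.9, 39.9, 41.9, 48.8 and 46.1 CPM in control libraries. All restraint libraries were above the control median, and control 4 alone passed the lowest restraint library, restraint 1. The log2 fold change was 0.41 ± 0.10 (SE), with an adjusted p of 0.137 by edgeR, 0.0165 by DESeq2 and 0.0127 by edgeR on all genes with at least 1 count. It lay between 0.35 and 0.48 when each library was left out in turn, and was 0.48 without restraint 1.

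Dnajc2 (chromosome 5, 21962265 to 21990249, minus strand) encodes a J-domain protein that sits on ribosomes and acts with the HSP70 protein of Hspa14 on chains as they emerge. It had 43.1, 48.0, 47.0, 44.0 and 38.6 CPM in restraint libraries and 36.7, 31.0, 32.7, 35.7 and 38.4 CPM in control libraries. The groups did not overlap, although restraint 5 and control 5 were within 1 CPM of each other. The log2 fold change was 0.34 ± 0.09 (SE), with an adjusted p of 0.162 by edgeR and 0.0290 by DESeq2, and it lay between 0.30 and 0.38 when each library was left out. Hspa14, named after its values were seen, had 32.0 ± 5.5 CPM in restraint and 30.1 ± 2.8 CPM in control libraries (SD, n = 5 each; log2 0.09 ± 0.11, SE). Whether the 2 genes differ in their change was not tested.

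The other DNAJC genes at an unadjusted p under 0.05 were Dnajc7 and Dnajc8. Dnajc7, which binds both HSP70 and HSP90, had 233 to 284 CPM in restraint and 190 to 248 CPM in control libraries (log2 0.19 ± 0.09, SE). Dnajc8, found in complexes that splice RNA, had 173, 172, 170, 180 and 137 CPM in restraint libraries, against 138 to 160 CPM in control libraries (log2 0.18 ± 0.08, SE). Restraint 5 was below all of the controls and the other 4 restraint libraries were above all of them. Genes for vesicle and synapse J-domain proteins overlapped: Dnajc5, which encodes the cysteine string protein of synaptic vesicles, had 598 ± 19 CPM in restraint and 630 ± 38 CPM in control libraries (log2 -0.08 ± 0.07, SE). Dnajc6, auxilin, which helps to uncoat clathrin vesicles, had 400 ± 28 and 388 ± 17 CPM in restraint and control libraries (SD, n = 5 each; log2 0.05 ± 0.07, SE). Dnajc12, which encodes a cochaperone of the hydroxylases that make dopamine and serotonin, had 56.2 ± 6.5 CPM in restraint and 59.9 ± 6.2 CPM in control libraries (SD, n = 5 each; log2 -0.09 ± 0.10, SE). Over the 26 DNAJC genes, 14 were positive and 12 negative, with a median of 0.03. The most negative, -0.24 ± 0.52 (SE), was that of Dnajc22, the lowest of them per length (0.265 CPM per kb in restraint and 0.312 CPM per kb in control). Dnajc24 and Dnajc10 had log2 fold changes of -0.16 ± 0.15 and -0.06 ± 0.07 (SE).

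The 4 DNAJA genes were lower apart from Dnaja4. Dnaja1, the main cytosolic partner of HSP70, had 432, 439, 409, 414 and 483 CPM in restraint libraries and 495, 380, 494, 514 and 493 CPM in control libraries. Each restraint library lay below 4 of the controls and above control 2. The log2 fold change was -0.13 ± 0.09 (SE). It lay between -0.19 and -0.10 when each library was left out in turn, and was -0.19 without control 2. Dnaja2 and the mitochondrial Dnaja3 had log2 fold changes of -0.09 ± 0.08 and -0.10 ± 0.07 (SE), with all 5 restraint libraries below the control median for each. Dnaja4, with 22.0 ± 1.7 CPM in restraint and 19.0 ± 3.0 CPM in control libraries (SD, n = 5 each), had a log2 fold change of 0.21 ± 0.11 (SE). It shares 44.1% of its exon bases with Wdr61 on the opposite strand, and counting did not use strand.

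Of the 11 DNAJB genes, 6 were positive and 5 negative, with a median of 0.03. Dnajb2, a neuronal J-domain protein that passes clients to the proteasome, had 154, 160, 161, 143 and 182 CPM in restraint libraries and 174, 179, 174, 186 and 182 CPM in control libraries. Of the restraint libraries, 4 were below every control and restraint 5 was among them (log2 -0.16 ± 0.07, SE; adjusted p of 0.418 by edgeR). Dnajb6, which holds back the clumping of polyglutamine proteins, had a log2 fold change of -0.06 ± 0.07 (SE). The endoplasmic reticulum members Dnajb9 and Dnajb11 had 0.14 ± 0.09 and 0.12 ± 0.08 (SE), and Dnajb12 and Dnajb14 had 0.10 ± 0.08 and 0.08 ± 0.09 (SE). The largest negative log2 fold change of the 83, -0.56 ± 0.27 (SE), was that of Dnajb13, a cilium gene with 1.19 ± 0.44 CPM in restraint and 1.76 ± 0.30 CPM in control libraries (SD, n = 5 each).

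BAG genes went both ways, with 2 higher and 1 lower at an unadjusted p under 0.05 out of 6. Of all genes tested, 5.64% were higher and 6.04% lower at that level. No BAG gene passed the adjusted threshold with edgeR as reported or with DESeq2. Bag3 (chromosome 7, 128125340 to 128148705, plus strand), a stress-induced exchange factor that steers proteins to autophagy, had 32.5, 61.1, 44.5, 42.5 and 34.6 CPM in restraint libraries and 28.5, 23.3, 31.9, 33.7 and 41.4 CPM in control libraries. All restraint libraries were above the control median, the groups overlapped through control 4 and control 5, and restraint 2 was far above the rest. The log2 fold change was 0.44 ± 0.16 (SE), with an adjusted p of 0.292 by edgeR, 0.129 by DESeq2 and 0.0320 by edgeR on all genes with at least 1 count. It was 0.27 without restraint 2 and 0.54 without control 5, the lowest and the highest values with 1 library left out.

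Bag1 had 236, 317, 266, 222 and 280 CPM in restraint libraries and 230, 213, 227, 221 and 225 CPM in control libraries. The controls lay close together and 4 restraint libraries were above all of them, with restraint 4 among them (log2 0.24 ± 0.09, SE; adjusted p of 0.283 by edgeR). Bag4 (chromosome 8, 26254566 to 26275315, minus strand), known for holding death receptors of the tumour necrosis factor family silent, had 76.2, 74.8, 71.9, 74.3 and 74.2 CPM in restraint libraries and 86.4, 84.4, 86.3, 81.7 and 78.1 CPM in control libraries. Every restraint library was below every control, although the log2 fold change was only -0.17 ± 0.07 (SE), with an adjusted p of 0.345 by edgeR and 0.220 by DESeq2. Bag2, Bag5 and Bag6 had log2 fold changes of 0.06, 0.04 and -0.03.

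Most CCT subunit genes were lower after restraint, by small amounts. The working ring holds 8 different subunits, encoded by Tcp1, Cct2 to Cct5, Cct6a, Cct7 and Cct8. Of these 8, 6 had negative log2 fold changes (median -0.07), against 50.4% of all genes tested. Cct7 (chromosome 6, 85428496 to 85445457, plus strand) had 271, 245, 261, 261 and 282 CPM in restraint libraries and 297, 281, 298, 298 and 312 CPM in control libraries. All restraint libraries were below the control median, and restraint 5 alone reached the lowest control, control 2 (log2 -0.17 ± 0.07, SE; adjusted p of 0.327 by edgeR). Cct4 (chromosome 11, 22940519 to 22953780, plus strand) had 142, 140, 138, 146 and 153 CPM in restraint libraries and 169, 147, 172, 154 and 161 CPM in control libraries (log2 -0.16 ± 0.07, SE; adjusted p of 0.396 by edgeR). All restraint libraries were below the control median, and control 2 was within their range. Cct5, Cct3, Cct8 and Cct2 had log2 fold changes of -0.11, -0.08, -0.07 and -0.07, and Cct6a and Tcp1 of 0.03 and 0.11. Per kb of all annotated exons, RNA levels ran from 28.7 CPM per kb for Cct3 to 106 CPM per kb for Cct8 in restraint libraries. In control libraries they ran from 28.3 CPM per kb for Tcp1 to 111 CPM per kb for Cct8. All annotated exons cover 6370 bases for Cct3 and 3088 for Cct8, against 1977 and 2394 in the longest coding transcript. The order and spread of the subunits therefore depend on the length used, and whether their RNA levels are equal was not tested. The summed level of the 8 genes was 1684 to 1816 CPM in restraint and 1663 to 1910 CPM in control libraries. Control 2 was the lowest of all 10, the other 4 controls had 1820 to 1910 CPM, and the groups overlapped.

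**Figure D4:**
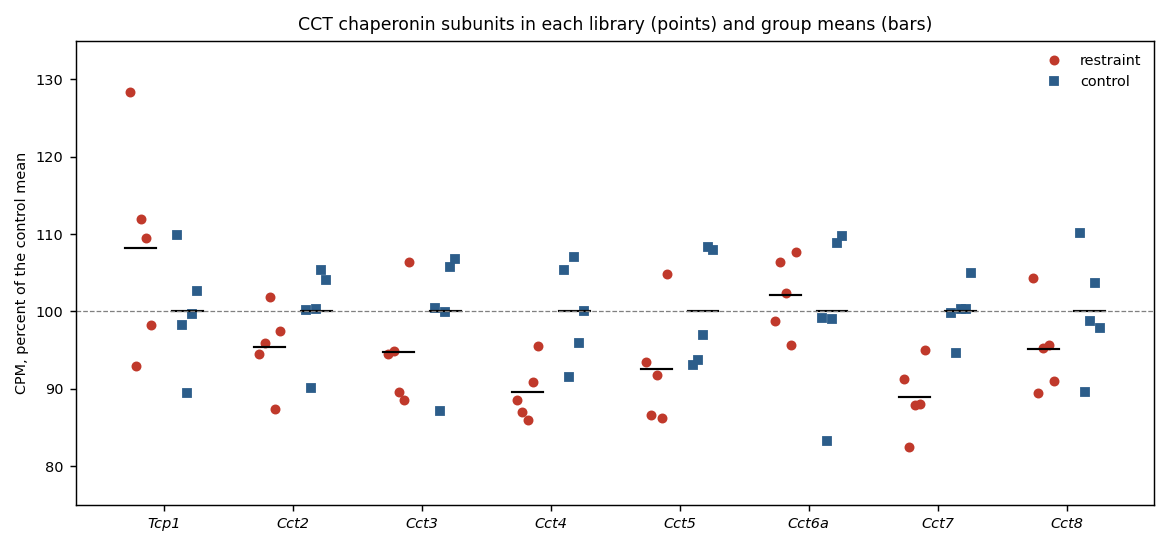
Level of each of the 8 CCT subunit genes in each library (y axis, CPM as percent of the control mean), restraint (red circles) left of control (blue squares), with bars for group means. The restraint mean is below the control mean for 6 of the 8 genes and above it for Tcp1 and Cct6a, and the groups overlap for each gene.

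Cofactors of these chaperones outside the 83 were read from lists, without a test of any list. Of all genes tested, 49.6% had positive log2 fold changes, and 5.64% were higher and 6.04% lower at an unadjusted p under 0.05 with edgeR. DESeq2 called 0.634% of all genes higher and 1.00% lower. Of 20 HSP90 cochaperones, 15 had positive log2 fold changes (median 0.09), 2 were higher and 1 lower at an unadjusted p under 0.05, and 0 passed with edgeR or DESeq2 in either direction. Stub1, a ubiquitin ligase that tags HSP70 and HSP90 clients, had 112 ± 12.9 CPM in restraint and 92.8 ± 11.7 CPM in control libraries (SD, n = 5 each; log2 0.27 ± 0.10, SE). Stip1, which links HSP70 to HSP90, had 437 ± 35.5 and 377 ± 53.3 CPM in restraint and control libraries (SD, n = 5 each; log2 0.21 ± 0.09, SE). Fkbp5, a cochaperone of the glucocorticoid receptor, had 26.6 ± 5.20 CPM in restraint and 33.1 ± 4.62 CPM in control libraries (SD, n = 5 each; log2 -0.31 ± 0.13, SE).

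Most listed partners of CCT had negative values, as did 50.4% of all genes tested. Whether they and the CCT genes shift together was not tested. Of 13 prefoldin subunits and other CCT partners, which hand actin and tubulin to the ring or take tubulin from it, 10 had negative log2 fold changes (median -0.15), 0 passed with edgeR and 1 was lower with DESeq2. That gene was Pfdn6, a prefoldin subunit, with 46.3, 58.3, 50.3, 37.8 and 51.6 CPM in restraint libraries and 68.8, 61.7, 71.9, 78.7 and 64.9 CPM in control libraries. Every restraint library was below every control, with a log2 fold change of -0.50 ± 0.11 (SE) and an adjusted p of 0.0857 by edgeR and 0.00291 by DESeq2. Of 9 exchange factors and other HSP70 partners, 7 were negative (median -0.07) and 1 was lower with DESeq2, Grpel1, the exchange factor of mitochondrial HSP70. It had 47.9 ± 4.53 CPM in restraint and 60.1 ± 4.32 CPM in control libraries (SD, n = 5 each), without overlap (log2 -0.33 ± 0.09, SE; adjusted p of 0.162 by edgeR and 0.0333 by DESeq2).

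Of 22 genes known as targets of heat shock factor 1, 13 are among the 83, so their calls are counted above too. Of the 22, 17 had positive log2 fold changes (median 0.09), against 49.6% of all genes tested. At an unadjusted p under 0.05 with edgeR, 5 were higher and 0 lower, against 5.64% and 6.04% of all genes. After adjustment 0 passed with edgeR and 1, Hsph1, passed with DESeq2. The 13 summed to 8048 to 9204 CPM in restraint and 7238 to 9015 CPM in control libraries, which overlapped. Among those higher at that level were Hsph1, Bag3, Hsp90ab1 and Stip1, while Hspa1a, Hspa1b, Dnajb1 and Hspb1 lay between -0.05 and 0.08. Of 11 measured folding enzymes and lectins of the endoplasmic reticulum, 6 were positive and 5 negative (median 0.06), and 4 were higher and 1 lower at an unadjusted p under 0.05. Calr and Pdia3, which act together on glycoproteins, had log2 fold changes of 0.30 ± 0.11 and 0.23 ± 0.08 (SE). Ppib, a prolyl isomerase there, had 27.0 ± 2.60 CPM in restraint and 36.7 ± 1.70 CPM in control libraries without overlap (SD, n = 5 each; log2 -0.44 ± 0.09, SE; adjusted p of 0.0747 by edgeR and 0.00108 by DESeq2). Of 8 partners in proteotoxic and oxidative stress, 7 were positive (median 0.17), among them Clu, an extracellular chaperone also made by astrocytes, at 1403 ± 47.9 CPM in restraint and 1178 ± 123 CPM in control libraries (SD, n = 5 each; log2 0.25 ± 0.08, SE; adjusted p of 0.195 by edgeR).

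Counting bears on several of these genes. Reads that map to more than 1 place were left out, per the file headers, and 14 of the 83 genes have over 20% of their 100-base windows in transcripts of another gene, among them Hspa1a, Hspa1b, Hspa1l, Hspa8, Hsp90aa1, Hspb1, Hspd1, Hspe1 and Tcp1, while 51 have none. Counting did not use strand, and 31 genes share exon bases with another gene, 14.8% for Bag4 and 3.16% for Cct7.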

How the data were processed

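The deposited table holds whole-number read counts per gene in 10 libraries and the exon length of each gene. Per the submitters' processing notes, the authors used FastQC, Trimmomatic and STAR, and the build was mm10. Counts came from featureCounts 2.0.3 with GENCODE M30 (GRCm39), per the file headers, without strand, pair counting or multi-mapping reads. No column was left unused. Symbols came from GENCODE M21 for 52073 of 56691 genes. Promoter sequences are RefSeq, GRCm38.p6.

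Genes were filtered with filterByExpr (count minimum 10, total minimum 15) and tested with edgeR 4.0.16 in R 4.3.3 (TMM, quasi-likelihood, group as the only term), with Benjamini-Hochberg adjustment over 18440 genes and a threshold of 0.05. DESeq2 1.42.0, limma 3.58.1 and other alternatives were run, and the edgeR step was checked on simulated counts. Exon overlap used bedtools 2.31.1. SDs are over 5 libraries. SEs come from the fitted log2 fold change and its F statistic. Precision depended on the spread between libraries and, for genes with few counts, also on depth.

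Members, lists and tests were chosen with earlier results of these data known. The text names fixed members, up to 4 members per family and direction with the smallest p, the highest and lowest per family, those called by any tool or without overlap, and up to 3 genes per other list. 1 gene is not reported here, and some that the rule takes are given only in counts and ranges.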

Additional observations from a re-analysis of the deposited data

Results flagged for a closer look

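In 12 of 166 gene and group sets of 5 libraries, 1 library lay far from the other 4 by Dixon's criterion, which chance meets in about 1 in 20 sets. Control 2 was the library in 4 of them, restraint 1, restraint 2 and restraint 4 in 2 each, and control 5 and restraint 5 in 1 each.

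Hspa8 had 2299 CPM in restraint 2, against 2760 to 2879 CPM in restraint libraries 1, 3, 4 and 5. Dnajc8 had 137 CPM in restraint 5, against 170 to 180 CPM. Dnajb6 had 212 CPM in restraint 4, against 223 to 227 CPM, and Dnajc3, an endoplasmic reticulum J-domain gene, had 102 CPM in restraint 4, against 94.7 to 95.9 CPM. Dnajb5 had 60.6 CPM in restraint 1, against 51.4 to 54.0 CPM, and Dnajc18, named after its values were seen, had 160 CPM there, against 128 to 133 CPM.

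Among the controls, control 2 had the lowest Dnaja1 level, 380 CPM against 493 to 514 CPM in the other controls. It had the highest level of Hspa12a (294 CPM against 217 to 223 CPM), of Dnajc15, named after its values were seen (151 CPM against 122 to 128 CPM), and of Hspa1l, a testis HSP70 gene (1.99 CPM against 0.610 to 0.766 CPM). Hspb3, a muscle small heat shock protein gene, was highest in restraint 2 (0.950 CPM against 0.187 to 0.346 CPM) and, among the controls, in control 5 (1.15 CPM against 0.330 to 0.536 CPM).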

How the results depend on the processing

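The median log2 fold change over the chaperone genes was positive under all 22 alternatives, and no chaperone gene was called lower under any. Genes called higher and lower among all tested, 1 and 3 as reported, were 117 and 185 with DESeq2, 103 and 199 with edgeR on genes with at least 1 count, 21 and 66 with limma-voom and quality weights, 20 and 48 with each library's length trend removed, 5 and 12 with library size only, and 0 and 0 with robust estimation. Leaving out each library in turn gave 0 to 9 higher and 0 to 83 lower. Chaperone genes called higher numbered 3 with DESeq2 and 2 with at least 1 count (Dnajc21 and Bag3), against 0 otherwise. At an unadjusted p under 0.05 the 8 higher and 4 lower became 5 higher with a CPM of at least 1 in 5 libraries, 0 lower with at least 1 count, and 5 to 8 higher and 1 to 4 lower when a library was left out. Of the 83 genes, 29 changed sign under some alternative, 0 of them at an unadjusted p under 0.05 as reported. The cause of these shifts was not tested.

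Libraries with the same replicate number did not deviate together (correlations of -0.164 to 0.027), so the numbers were not taken as pairs. A replicate block gave 0 higher and 0 lower among all genes and, among chaperone genes at an unadjusted p under 0.05, 6 higher and 1 lower (4.28% and 4.96% of all genes).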
